A study of Homo sapiens with 2 samples.

Results

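TARBP2-bound regions on one DNA strand that overlapped a bound region on the other strand were described. RNA bound by TARBP2 had been mapped in MDA-LM2, a lung-metastatic derivative of the human breast cancer line MDA-MB-231. The cells carried a transiently transfected vector for myc-tagged TARBP2 and were UV cross-linked 48 hours later, and RNA bound to the tagged protein was collected with an antibody to the myc tag and sequenced (HITS-CLIP). The study held 1 group of 2 replicates with no control library, and whether separate cultures were used for them is not stated in the labels. The regions came as a single stranded list on hg19 in which the score was 1 throughout. Read depth is therefore unknown for every region, and no value below has a replicate error. The tagged protein was overexpressed, so binding at its cellular level was not measured.

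A region was taken when it shared at least 1 nt with a region on the opposite strand of the same chromosome, on chromosomes 1 to 22. This gave 295 of 22514 regions (1.31%), of 23412 in the whole list. They were 146 of 8861 plus-strand regions (1.65%) and 149 of 13653 minus-strand regions (1.09%). They formed 154 pairs in 141 groups of connected regions, of which 132 groups held exactly 2 regions and 9 held more. They were chosen by the measured start, end and strand of the regions, so overlap, layout and length are described here without a test.

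TARBP2 binds double-stranded RNA through double-stranded RNA-binding domains and works with the nuclease Dicer when microRNAs are made. RNA transcribed from both strands of a locus can pair over the shared stretch, and such natural antisense pairs are one known source of long double-stranded RNA. Mitochondrial DNA is another, because both of its strands are transcribed over most of their length. Gene pairs on opposite strands are called tail-to-tail when their 3′ ends overlap, head-to-head when their 5′ ends overlap, and nested when one lies inside the other, and the same terms are used here for regions. A list of regions does not show that a duplex formed.

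The sequences of some stretches that carried overlaps are shown first. Overlaps lay over exons of TARBP2 itself, the gene carried by the vector. Regions were placed on exons through the layout of transcript TARBP2-201, described below. The match held 5 of 9 exon starts, against 4 at the next best place. If the placement holds, positions are uncertain by a few nt. Capitals mark the bases inside an overlap between strands. Exon 4 holds the overlap at chr12:53897500-53897563. Exons 5 and 6 hold 73 and 95 nt of the 400 nt overlap at chr12:53898180-53898579. The rest of it lies mostly in the intron between them, which is not shown. Sequences are those of GENCODE 29, 5′ to 3′ on the plus strand.
TARBP2 exon 4: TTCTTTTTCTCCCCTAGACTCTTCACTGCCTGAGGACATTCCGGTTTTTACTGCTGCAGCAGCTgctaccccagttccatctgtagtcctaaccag
TARBP2 exon 5: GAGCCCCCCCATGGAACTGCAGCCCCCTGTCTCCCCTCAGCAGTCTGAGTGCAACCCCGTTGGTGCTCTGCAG
TARBP2 exon 6: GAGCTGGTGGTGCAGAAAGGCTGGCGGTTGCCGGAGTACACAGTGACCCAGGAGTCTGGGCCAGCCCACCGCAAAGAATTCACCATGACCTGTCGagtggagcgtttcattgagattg

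The last pair of sequences shows how close a nuclear copy of mitochondrial DNA is to its source. MT-ATP8 is the mitochondrial gene of an ATP synthase subunit, and MTATP8P1 is its copy in the cluster of mitochondrial pseudogenes near the start of chromosome 1. Capitals mark the 5 positions that differ, which are G27A, C90T, C96T, T138C and G180A when counted from 1 at the 5′ end of MT-ATP8, with the base of MT-ATP8 first.
MT-ATP8: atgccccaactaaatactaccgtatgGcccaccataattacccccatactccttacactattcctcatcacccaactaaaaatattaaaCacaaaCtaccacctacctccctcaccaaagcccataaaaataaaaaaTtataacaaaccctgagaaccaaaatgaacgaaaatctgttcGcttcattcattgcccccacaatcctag
MTATP8P1: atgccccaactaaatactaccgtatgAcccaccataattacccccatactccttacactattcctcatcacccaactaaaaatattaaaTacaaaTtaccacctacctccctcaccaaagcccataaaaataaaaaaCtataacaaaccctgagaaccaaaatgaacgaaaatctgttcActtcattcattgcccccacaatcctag

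Of the 154 pairs, 90 overlapped head-to-head, 31 tail-to-tail and 33 were nested. In 18 nested pairs the minus-strand region lay inside the plus-strand region, and in 15 the reverse held. The nested share was 21.4% (95% exact binomial interval 15.2 to 28.8%, counting error only). Of the 121 pairs with a partial overlap, 25.6% were tail-to-tail (18.1 to 34.4%). No pair had both ends in common. The overlap had a median of 153.5 nt, quartiles of 48.5 and 252.0 nt and a range from 1 to 3324 nt, and it made up at least 50% of the shorter region in 84 pairs. Pairs of 1 locus share their source, so these intervals are too narrow where a locus supplied many pairs.

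The named loci, of 3 kinds, supplied 42 pairs and 73 regions. The 5S array held 56 of the regions (19.0%) and 31.6% of the summed overlap of 35083 nt. A pair of mitochondrial DNA copies held 11 regions (3.73%) and 23.9% of the summed overlap. The TARBP2 stretch held 6 regions and 2.58% of it. The other 222 regions (75.3%) formed 112 pairs at 110 places and held 41.9% of the summed overlap.

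Lengths differed between these sets. Overlapping regions had a median length of 267 nt, against 253 nt for the 22219 regions without an overlap. In the 5S array the median was 647.5 nt, in the mitochondrial copies 1040 nt, and at the other places 255.5 nt. A longer region has more chance to meet an opposite one, so length is not independent of the choice. Of all regions 2.28% were longer than 1000 nt, against 4.41% of the overlapping regions (13 of 295) and 1.80% of those at the other places (4 of 222).

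The length of 249 nt, the most common in the list, was found in 19.6% of all regions and in 13.6% of the overlapping ones (40 of 295). By strand it was found in 8.2% of all plus-strand regions and in 8.90% of overlapping ones (13 of 146). On the minus strand it was found in 27% of all regions and in 18.1% of overlapping ones (27 of 149). At the places outside the named loci the shares were 10.8% on the plus strand (12 of 111) and 21.6% on the minus strand (24 of 111). Both regions measured 249 nt in 5 pairs, 4 of them head-to-head, with overlaps from 14 to 133 nt. A neighbour on the same strand within 10 kb was present for 45.3% of all regions and for 46.1% of overlapping ones (136 of 295), but for 28.8% of those outside the named loci (64 of 222). Every overlapping region of the 5S array and of the TARBP2 stretch had such a neighbour.

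The named locus with the most overlapping regions was an array on chromosome 1. It holds tandem genes for 5S ribosomal RNA, a structural RNA of the large ribosomal subunit. In GENCODE 29 the 17 numbered 5S genes of chromosome 1 are all on the minus strand, and their starts are 2241 nt apart in the median (2215 to 2242 nt). The 5S array ran from chr1:228742455 to 228782206, a length of 39752 nt or 17.7 units of the gene spacing. It held 33 plus-strand and 32 minus-strand regions, and 27 and 29 of these overlapped the other strand. Both strands were covered over 27.9% of its length, the plus strand alone over 28.5%, the minus strand alone over 20.6% and neither over 23.0%. Its 30 pairs were 14 head-to-head, 1 tail-to-tail and 15 nested, with a median overlap of 371 nt (2 to 861 nt). The other 9 regions met no region on the opposite strand.

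**Figure D1:**
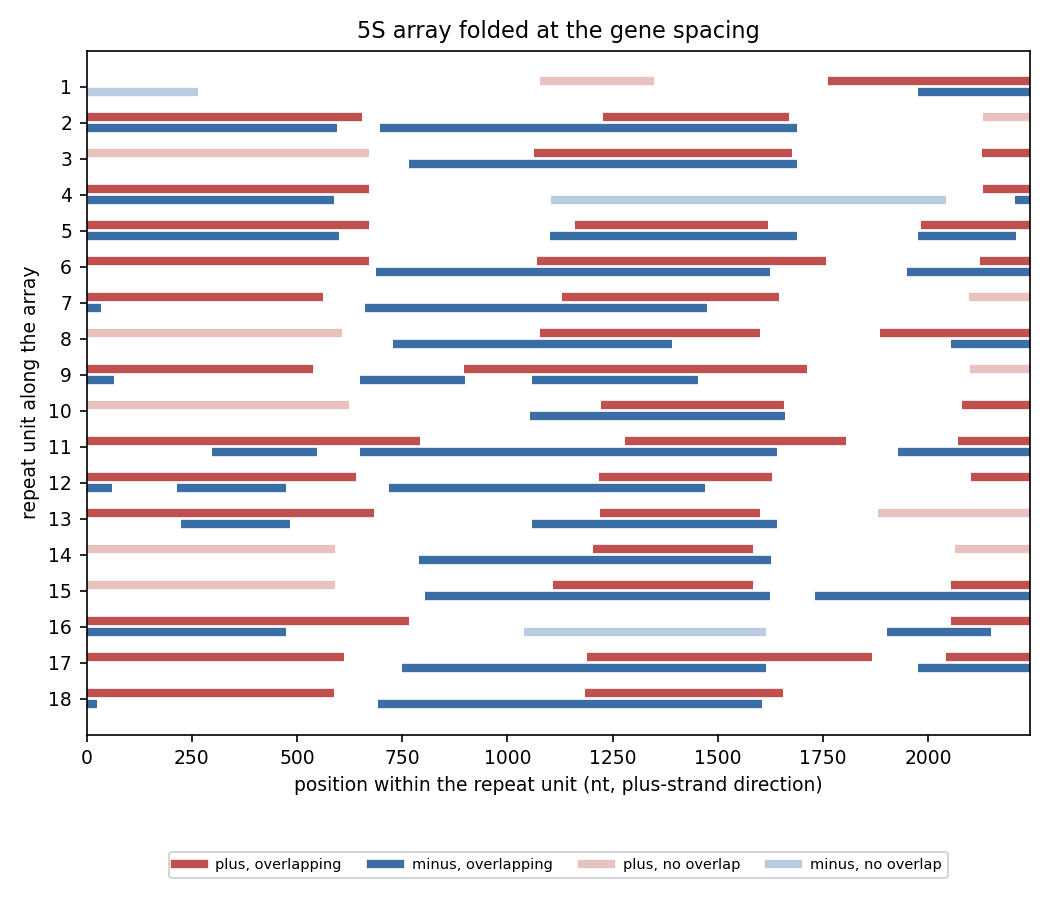
The regions of the 5S array are folded at the 2241 nt spacing of the 5S genes: each line on the y axis is 1 repeat unit, the x axis is the position within the unit in nt, and bars are plus-strand (red) and minus-strand (blue) regions, pale where nothing overlapped them. The minus-strand bar is the longer one in 14 of the 15 pairs in the middle of the unit, and the plus-strand bar in 12 of the 13 pairs at its edge.

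When the array was folded at the gene spacing, its overlaps fell into separate parts of the unit. The centres of 15 overlaps lay within 225.5 nt in the middle of the unit (10.1% of it), 1 in each of 15 different units. In 14 of these 15 pairs the plus-strand region was the shorter one, with a median of 476 nt against 821 nt on the minus strand. Another 13 overlaps lay within 569 nt around the edge of the unit (25.4% of it). In 12 of these 13 pairs the plus-strand region was the longer one, with a median of 811 nt against 290 nt. The remaining 2 overlaps, of 2 and 143 nt, lay between these parts. The borders of the parts were drawn after the positions were seen. The start of a unit is that of the first region, so the place of the 5S gene within the unit is not given. Copies of a repeat can share reads, and the sources used here do not state how reads with several alignments were treated. The units are therefore not independent cases.

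Long copies of mitochondrial DNA in the nuclear genome are known near the start of chromosome 1 and on the long arm of chromosome 5, and the overlapping regions of both stretches were counted apart. On chromosome 1, a plus-strand region of 5895 nt (chr1:564555-570449) faced 2 minus-strand regions of 2454 nt (chr1:564345-566798) and 3324 nt (chr1:566973-570296). The second lay wholly inside it, and this was the longest overlap of the list. Both strands were covered over 5568 nt, or 91.2% of the 6105 nt between the outermost ends. On chromosome 5, 4 plus-strand and 4 minus-strand regions lay between chr5:134259268 and 134263896, and all 8 overlapped the other strand. There both strands were covered over 2814 nt (60.8% of 4629 nt), in 6 pairs with overlaps of 6 to 857 nt. The plus-strand regions of chromosome 5 measured 249, 623, 1010 and 1536 nt and the minus-strand ones 1175, 1040, 930 and 692 nt.

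The mitochondrial pseudogenes that GENCODE 29 lists in the first cluster of chromosome 1 are all on the plus strand (7 of 7). Over the aligned part they matched the mitochondrial genes with an identity of 97.6 to 98.7%, with 20 mismatches over 1542 nt for MTCO1P12 and 17 over 1042 nt for MTND2P28. In the last cluster of chromosome 5, 5 of 6 pseudogenes are on the minus strand and the identity was 89.6 to 95.7%. These clusters were paired with the stretches by their order along the chromosome, since GENCODE 29 is on GRCh38. The list placed 4 regions on the mitochondrial genome, 4 on the plus strand and 0 on the minus strand. Whether the reads behind the nuclear copies came from mitochondrial RNA was not tested.

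**Figure D2:**
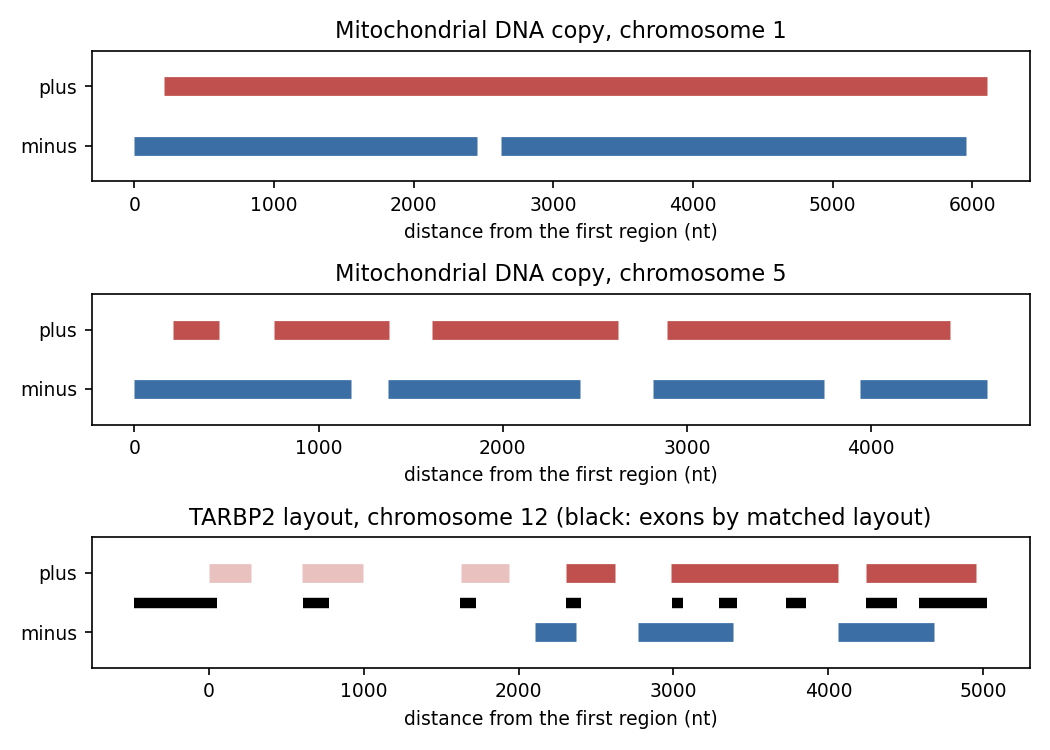
Each panel shows the plus-strand (red) and minus-strand (blue) regions of 1 locus against the distance from its first region in nt, pale where nothing overlapped them. Both strands of the chromosome 1 copy were covered over 91.2% of its length. In the bottom panel the TARBP2 exons (black) were placed to match as many starts of plus-strand bars as possible. At that place 5 of the 6 plus-strand bars begin at an exon start, and the next best place matched 4 exon starts.

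The TARBP2 stretch served as a check of what a region covers, because exon lengths are known. Exon starts of TARBP2-201 were slid along the plus-strand region starts of all chromosomes. The best position lay on chromosome 12, where 5 of 9 exon starts fell within 15 nt of a region start, and the next best, on chromosome 4, matched 4. At this position the first 5 plus-strand regions ended 216, 219, 217, 219 and 209 nt past the 3′ end of the last exon they touched, a distance that the match had not used. The last plus-strand region ended 70 nt before the end of exon 9. The 3 minus-strand regions lay opposite exons 4, 5 to 6 and 8 to 9, and in their own 3′ direction they ended 203, 218 and 178 nt past an exon. In 7 of the 9 regions the end thus lay 203 to 219 nt beyond an exon, in the 3′ direction of the region's own strand. The sources used here do not state whether reads were extended before regions were made. Region and overlap lengths may therefore include bases that no read covered, and some tail-to-tail pairs may overlap only in such bases, which was not tested.

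Of the 6 plus-strand regions of this stretch, the last 3 overlapped the 3 minus-strand ones, and the first 3 had no opposite region. The overlaps were 64 nt (chr12:53897500-53897563), 400 nt (chr12:53898180-53898579), 440 nt (chr12:53899436-53899875) and 1 nt, 3 of them head-to-head. The first lay wholly in exon 4, and the next spanned the intron between exons 5 and 6. The cellular TARBP2 mRNA and RNA from the vector could both give plus-strand regions over these exons, so their parts cannot be told apart. The source of the 3 minus-strand regions was not tested.

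Outside these loci, 69 pairs were head-to-head, 27 tail-to-tail and 16 nested. Head-to-head pairs had a median overlap of 52 nt (12 to 612 nt) and tail-to-tail pairs one of 124 nt (10 to 285 nt). In 34 of the 69 head-to-head pairs (49.3%), on 17 chromosomes, the overlap measured 29 to 55 nt with a median of 41 nt. Of the 27 tail-to-tail pairs, 2 (7.41%) had an overlap in the range of 25 to 60 nt, which was chosen after the head-to-head overlaps were seen.

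**Figure D3:**
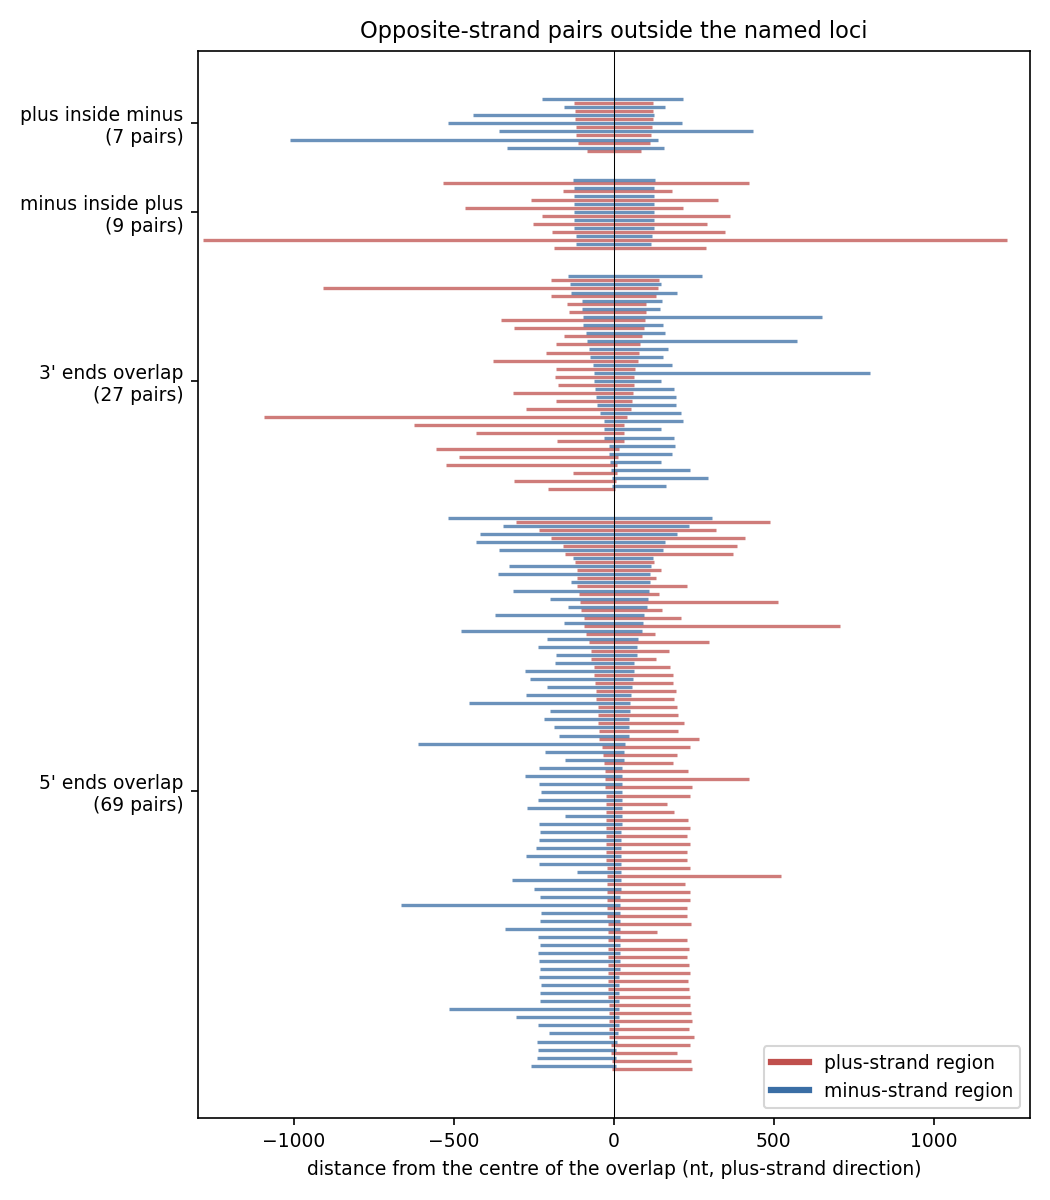
Each line is 1 of the 112 pairs outside the 5S array, the mitochondrial copies and TARBP2, with the plus-strand region in red and the minus-strand region in blue, placed by distance in nt from the centre of the overlap and sorted by overlap within each layout. In the 69 pairs whose 5′ ends overlap, many bars of like length extend away from a short shared stretch.

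In 20 of these 34 pairs, on 14 chromosomes, both regions measured 240 to 270 nt, and the pair as a whole spanned 457 to 475 nt. Chromosome 9 held 3 of them, at chr9:10951-11419, chr9:5684053-5684520 and chr9:36346901-36347371. The part of each region outside the overlap was then nearly constant. It measured 205 to 222 nt on the plus strand (median 214.5 nt) and 203 to 223 nt on the minus strand (median 212.5 nt). The limits on length and overlap, set after the values were seen, confine this part, though to a wider range than the one found. Among all 34 pairs, without the limit on length, it measured 200 to 225 nt in 27 plus-strand and 22 minus-strand regions. Over all 69 head-to-head pairs the part outside the overlap varied widely, from 2 to 614 nt on the plus strand (quartiles 142 and 219 nt) and from 6 to 644 nt on the minus strand (quartiles 169 and 230 nt). It measured 200 to 225 nt for both regions in 23 pairs, of which 21 were among the 34 with a short overlap and 20 were those picked by length. Only 2 of the other 35 pairs did so. The part outside is the length less the overlap, so this contrast follows largely from the split by overlap.

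The pairs just inside and just outside the threshold differed in number by layout. With 5′ ends facing, 17 pairs were separated by a gap of 0 to 99 nt and 48 overlapped by 1 to 100 nt, counted over all loci. The bin of 26 to 50 nt held 28 of the 48, while no bin of gaps held more than 6. With 3′ ends facing, 15 pairs had such a gap and 12 such an overlap. The nearest pair outside the threshold was a head-to-head one on chromosome 4 with a gap of 3 nt (chr4:114400955-114401217 on the minus strand and chr4:114401221-114401429 on the plus strand).

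**Figure D4:**
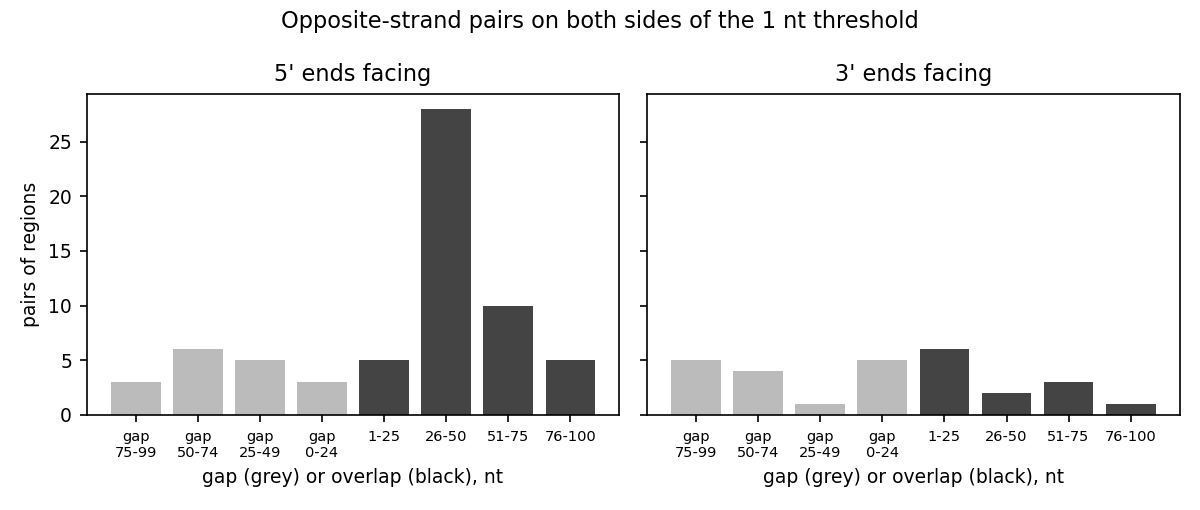
Bars count pairs of opposite-strand regions per 25 nt bin of the gap (grey) or overlap (black) between them, with 5′ ends facing on the left and 3′ ends facing on the right. The bin of 26 to 50 nt of overlap stands out on the left with 28 pairs, and no such bin is seen on the right.

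Since most regions of the TARBP2 stretch ended past an exon, overlaps were sought again after a fixed length had been taken off the 3′ end of each region, a setting chosen after that layout was seen. Whether regions elsewhere end past exons was not tested. With 200 nt taken off, 57 of the 69 head-to-head pairs outside the named loci still overlapped, as did 11 of the 16 nested pairs and 0 of the 27 tail-to-tail pairs. Both the survival of head-to-head pairs and the loss of tail-to-tail pairs follow largely from the setting. Trimming 3′ ends leaves overlaps of 5′ ends in place unless the regions are short, and the longest tail-to-tail overlap was 285 nt. In all, 209 regions kept an overlap.

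The longest overlap outside the named loci measured 612 nt, between regions of 796 and 826 nt on chromosome 17 (chr17:61994054-61994849 and chr17:61993840-61994665). It was the only pair of chromosome 17. The next were 468 nt on chromosome 6 (chr6:26125769-26126236), 394 nt on chromosome 2 (chr2:33141299-33141692), 318 nt near the end of chromosome 7 (chr7:24078-24395) and 309 nt on chromosome 2 (chr2:88124419-88124727). These 5 were head-to-head. The longest tail-to-tail overlaps were 285 nt on chromosome 18 (chr18:77772986-77773270), 278 nt on chromosome 4 (chr4:2727437-2727714) and 267 nt on chromosome 2 (chr2:86338854-86339120). In the last of these both regions measured 332 nt.

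The shortest overlaps outside the named loci were 10 nt on chromosome 7 (chr7:76270206-76270215) and 12 nt on chromosome 4 (chr4:39137676-39137687), both tail-to-tail. Head-to-head overlaps of 12 nt on chromosome 1 (chr1:202660878-202660889) and 14 nt on chromosome 5 (chr5:37241040-37241053) followed. Outside the named loci, 2 groups had 3 regions. On chromosome 1, a plus-strand region of 451 nt (chr1:1252417-1252867) met a minus-strand region at each end, by 55 nt at its 5′ end and by 196 nt at its 3′ end. On chromosome 11, a minus-strand region of 247 nt (chr11:28831415-28831661) met a plus-strand region at each end, by 17 nt at its 5′ end and by 118 nt at its 3′ end.

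Of the 16 nested pairs outside the named loci, 9 had the minus-strand region inside and 7 the plus-strand region. The inner minus-strand regions measured 235 to 259 nt, and 6 of 9 were exactly 249 nt long. The inner plus-strand regions measured 168 to 248 nt, and 0 of 7 were 249 nt long. That length was found in 27% of all minus-strand regions and in 8.2% of all plus-strand ones. An inner region is the shorter one of its pair, so its length is not independent of the layout. The outer regions measured 342 to 2514 nt around a minus-strand region (median 587 nt) and 316 to 1150 nt around a plus-strand region (median 565 nt). Chromosome 3 held 1685 of all 22514 regions and 12 of the 112 pairs outside the named loci. It held 7 of the 16 nested pairs, 5 of them with the minus-strand region inside. Of these, 2 lay close together, at chr3:50052668-50052916 and chr3:50070433-50070681, each 249 nt long inside plus-strand regions of 684 and 588 nt. The longest outer region, of 2514 nt (chr3:10192826-10195339), held a minus-strand region of 238 nt with more than 1000 nt of plus-strand region on either side. Inner minus-strand regions of 249 nt also lay at chr3:10032389-10032637, chr4:988632-988880, chr6:151653026-151653274 and chr16:30945682-30945930, inside plus-strand regions of 545, 540, 342 and 587 nt. The shortest inner region, of 168 nt (chr14:50794005-50794172), lay on the plus strand inside a minus-strand region of 492 nt. The longest inner region, of 259 nt, lay on chromosome 2 (chr2:89875079-89875337) inside a plus-strand region of 959 nt.

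Overlapping regions were found on 21 of 22 chromosomes. Chromosome 1 held 76, or 3.36% of its regions, but 17 (0.753%) outside the 5S array and the mitochondrial copy. Outside the named loci the share had a median of 1.09% over the chromosomes. It was highest on chromosome 21 (4 of 206 regions, 1.94%), followed by chromosomes 4 (1.50%) and 3 (1.42%). It was lowest among chromosomes with any on chromosomes 17 (2 of 958, 0.209%), 20 (2 of 685, 0.292%) and 19 (4 of 944, 0.424%). Chromosome 22 had 0 of 440, where a count of 0 allows at most 0.682% (an upper limit of 3 counts). Most of these shares rest on few regions.

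**Figure D5:**
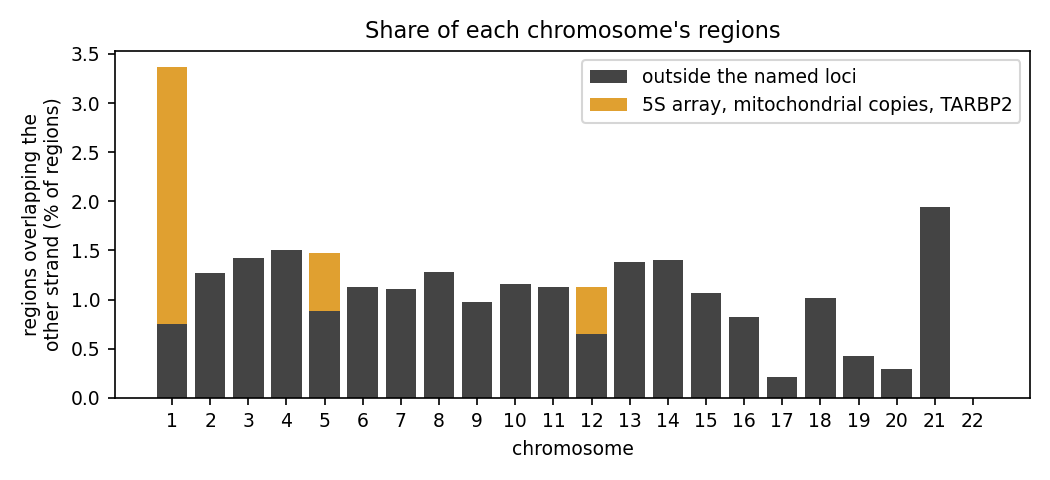
Bars give, for each of chromosomes 1 to 22, the percentage of its regions that overlapped a region on the other strand, split into the named loci (orange) and all other places (black). Chromosome 1 reached 3.36% through the named loci, and chromosome 22 had none.

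Regions were not assigned to sense-antisense gene pairs, because the annotation used here is on GRCh38 and coordinates were not converted. The layouts of annotated genes can be set beside those of the regions without coordinates. In GENCODE 29, chromosomes 1 to 22 hold 17287 pairs of genes that overlap on opposite strands, with 2861 head-to-head, 2751 tail-to-tail and 11675 nested. Of the partial overlaps, 49.0% are tail-to-tail, and 54.0% among the 2696 pairs of protein-coding genes. Of the partially overlapping regions outside the named loci, 28.1% were tail-to-tail (19.4 to 38.2%, 27 of 96). Nested pairs make up 67.5% of annotated pairs and 23.9% of protein-coding pairs, against 14.3% of these region pairs (8.39 to 22.2%). Genes are far longer than regions, and which genes were transcribed is not known here, so the shares are set side by side without a test.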

How the data were processed

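HITS-CLIP was made from 2 samples of MDA-LM2 cells, replicates 1 and 2 of 1 group. Per the submitters' processing notes, reads were aligned with Bowtie to hg19. The calling and filtering of regions, the role of each replicate and the Bowtie release were not given in the sources used here. For both replicates together, the authors deposited 1 list, with a score of 1 in each region, so no depth per sample can be given. Deposited starts are 0-based and are printed 1-based.

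Pairs were regions on opposite strands of 1 chromosome sharing at least 1 nt, and regions linked by pairs formed groups. Shares have 95% exact Clopper-Pearson intervals for counting error only. The 5S array window came with the selection rule, and the mitochondrial copies, the TARBP2 stretch and the parts of the 5S unit were chosen after values were seen. The members and lists were chosen with earlier results of these data known. Named pairs outside these loci were groups of 3 or more regions, the 10 longest and 5 shortest overlaps and the 5 longest inner regions. Pairs given as examples on chromosomes 3 and 9 and the nested pairs were picked with their values in view. GENCODE 29 (GRCh38) gave gene layouts, spacing and sequences, and no coordinate was carried between builds. The sequence of 1 gene is not reported here. Pseudogenes were aligned globally with free end gaps. The pair search was right for 400 of 400 simulated pairs, which included touching pairs that it rightly left out. Alternatives were other minimum overlaps, sets of regions and trimmed 3′ ends. Tools were Biopython 1.88, pandas 2.3.3, Python 3.11.15, scipy 1.17.1, numpy 2.4.6 and matplotlib 3.10.9.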

Additional observations from a re-analysis of the deposited data

How the results depend on the processing

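Of 38 values recomputed for 5 results, each under several alternative settings, 22 lay within the 95% interval of the reported value, or within 1.5 times the reported count. The number of overlapping regions, 295, was 299 with chromosome X and fell to 182 when an overlap of 100 nt was asked for and to 164 when 50% of the shorter region was. The median overlap of 153.5 nt was 49.0 nt with 200 nt taken off each 3′ end. Such trimming leaves 49 nt of a region of 249 nt, but it also leaves short head-to-head overlaps in place. Which of these gave the 49.0 nt was not tested. The untrimmed median was 113.5 nt without the 5S array and 104.5 nt without the mitochondrial copies also. It stayed at 104.5 nt without TARBP2 too. The median length of 267 nt was 257, 256 and 255.5 nt in the same 3 sets. The nested share of 21.4% was 14.5% without the 5S array, 13.8% without the mitochondrial copies also and 14.3% without TARBP2 too. It was 35.1% for overlaps of at least 100 nt, 32.0% with 100 nt taken off each 3′ end and 43.9% with 200 nt. The tail-to-tail share of 25.6% was 16.1% with 100 nt taken off and 24.5 to 31.1% in settings that left the regions untrimmed. It was 28.3% with 200 nt taken off (17 of 60), but 1 of the 31 original tail-to-tail pairs was left there, so nearly all the 17 were pairs of another layout before trimming. With fewer loci or shorter regions these shifts follow from the construction, and the cause was not tested beyond that. No paired analysis was possible because the list holds no values per replicate, so leaving out a replicate was not possible either. Alternatives for gene pairs, and the planned list of known sense-antisense pairs and GC content, were not run, because they need hg19 sequence and genes. Depth is unknown.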

Other observations

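Chromosome X, which the selection left out, held 2 further pairs among its 894 regions. Both were head-to-head. The overlaps measured 67 nt (chrX:100407091-100407157) and 41 nt (chrX:147930879-147930919), and the second joined regions of 257 and 254 nt with a span of 470 nt.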
